A study of Homo sapiens with 60 samples.

Results

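The transcripts of 10 receptor tyrosine kinases for growth factors and cell-surface ligands are described here: FGFR1, FGFR2, FGFR3, FGFR4, EGFR, ERBB2, ERBB3, MET, AXL and EPHA2. They are 10 of 60675 gene identifiers in the deposited table, and all 10 were among the 17268 genes with enough counts to test. They were chosen by name, with earlier results of these data known, for their CPM (each gene's count scaled to a common library total, after TMM adjustment) across vehicle and every extract and dose, so the values that chose them are given as a description and no p-value is given for them. Receptor tyrosine kinases span the cell membrane, bind a ligand outside the cell, pair up and phosphorylate each other and docking proteins inside it, which starts the ERK and PI3K–AKT cascades. In lung epithelium and lung adenocarcinoma these receptors are known as drivers or modifiers of growth. A549 is an established human lung adenocarcinoma cell line.

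RNA was sequenced from A549 cells after 24 h with hot-water extracts of medicinal plants or with vehicle. Extracts of single drugs were Citri, Cimicifugae, Bupleuri and Aconiti, and extracts of mixed prescriptions were Yijung, Banhasasim and Bojungikgi. Each was given at a low, a medium and a high dose of 20, 100 and 500 µg/mL, except Aconiti, given at 14.4, 72 and 360 µg/mL; per the design text an extract with an IC20 under 500 µg/mL had that concentration as its high dose. Vehicle was DMSO, labelled as 0.1% on the samples and as 2% in the design text. There were 3 libraries for each dose of 6 extracts and 3 for vehicle, 57 in all, and 1 for each dose of Bojungikgi. Nothing in the labels says that the 3 libraries of a group came from separate cultures, so their spread may be technical. Every sample title carries the label Second_BatchB. The first part of the sample name is called the set label here, and what it stands for is not said. Vehicle has a set label of its own. Citri shares one with Cimicifugae, Bupleuri with Aconiti and Yijung with Banhasasim. Set and extract therefore cannot be told apart in a comparison with vehicle. Within an extract all doses have 1 set label, so high against low is given beside it as the within-set value.

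Total counts per library lay between 17793655 and 30188211, with a median of 25758911, and mitochondrial genes took 6.32% to 18.9% of them. That share was 16.5% to 18.9% in Aconiti high, 13.5% to 15.2% in Aconiti medium and 7.75% to 9.52% in Aconiti low. It was 9.21% to 9.31% in Yijung high, 6.32% to 8.97% in Yijung medium and 7.91% to 8.54% in vehicle. It moved with the Aconiti dose, and its part in the Aconiti values below was not tested. The keratins of simple epithelium marked the line: KRT8 averaged 3680 CPM, KRT18 2870 CPM and KRT7 2230 CPM in vehicle. CDH1, KRT19 and EPCAM, on the same list, were far lower, at 28.7, 24.0 and 4.52 CPM. Among the markers of other cells PTPRC, CD3E and COL1A2 were at 0 in vehicle, PECAM1, CDH5 and VWF were at 0.0302 to 0.0425 CPM, and the alveolar type 2 markers SFTPB, SFTPC and NKX2-1 reached at most 0.232 CPM in any library. NAPSA, also on the alveolar type 2 list, was at 1.1 CPM in vehicle and reached 1.73 CPM. COL1A1, COL3A1 and PDGFRA, on the fibroblast list, were at 32.3, 1.94 and 0.338 CPM in vehicle. CD14, on the leukocyte list, was at 1.72 CPM there. Libraries differed in their length balance, the mean log2 CPM of protein-coding genes with more than 6 kb of exon minus that of genes with less than 1.5 kb. Citri medium 1 stood apart, 1.24 below the vehicle mean on this log2 measure, against a range of -0.12 to 0.10 in the vehicle libraries themselves.

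Promoter sequences are shown for 4 receptors whose values differed from vehicle with Yijung medium and high, a pair that was lower (FGFR3, FGFR4) and a pair that was higher (AXL, EPHA2), so that the letters ahead of each start can be compared. Each is the 250 bases before the RefSeq start on GRCh38.p14, read 5′ to 3′ on the gene's own strand, with each GC box (GGGCGG, or CCGCCC on the other strand) in capitals. FGFR3 lies at chr4:1793043-1793292 on the plus strand, FGFR4 at chr5:177086665-177086914 on the plus strand, AXL at chr19:41218973-41219222 on the plus strand and EPHA2 at chr1:16156070-16156319 on the minus strand.
FGFR3: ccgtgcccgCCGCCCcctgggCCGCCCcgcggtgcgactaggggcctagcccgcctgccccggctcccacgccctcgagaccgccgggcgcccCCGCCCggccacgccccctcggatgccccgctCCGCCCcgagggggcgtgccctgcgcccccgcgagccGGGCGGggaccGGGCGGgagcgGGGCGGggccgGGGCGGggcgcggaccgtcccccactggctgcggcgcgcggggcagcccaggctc
FGFR4: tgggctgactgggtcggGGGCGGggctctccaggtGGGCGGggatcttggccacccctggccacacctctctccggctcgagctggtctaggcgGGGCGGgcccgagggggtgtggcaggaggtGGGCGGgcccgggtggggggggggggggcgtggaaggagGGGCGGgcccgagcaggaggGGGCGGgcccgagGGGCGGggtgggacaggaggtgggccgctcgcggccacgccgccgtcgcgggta
AXL: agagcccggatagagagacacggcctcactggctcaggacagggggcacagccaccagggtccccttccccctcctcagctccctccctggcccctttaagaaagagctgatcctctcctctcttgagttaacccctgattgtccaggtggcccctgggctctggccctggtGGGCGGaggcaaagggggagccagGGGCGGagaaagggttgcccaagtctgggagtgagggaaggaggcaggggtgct
EPHA2: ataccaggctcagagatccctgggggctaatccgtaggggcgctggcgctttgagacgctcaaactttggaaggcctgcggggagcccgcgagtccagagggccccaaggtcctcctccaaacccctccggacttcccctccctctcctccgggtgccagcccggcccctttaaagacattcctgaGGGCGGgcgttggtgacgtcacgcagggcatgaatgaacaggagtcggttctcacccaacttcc
FGFR3 held 8 GC boxes and FGFR4 held 7, against 2 in AXL and 1 in EPHA2. Of the other receptors in the table FGFR2 held 3, EGFR 2, MET 2 and ERBB2 0. ERBB2, whose sequence is not shown, was also lower with Yijung medium and high, so few GC boxes were not particular to the higher pair. Over the 35116 promoter windows of this length in the same RefSeq table, 42.6% held at least 1 GC box and 1.12% held 7 or more. None of the 4 shown held the AP-1 letters TGANTCA, searched with any base allowed at N. Those letters are in 6.57% of windows, and ERBB2 held 1 match. EPHA2 alone held the cAMP response element TGACGTCA, which is in 1.65%. These motifs were searched on both strands and were chosen after the sequences had been seen, and a match describes letters only. Of the 10 receptors 8 were in the promoter table; FGFR1 and ERBB3 were not.

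In vehicle the receptors spanned a wide range of level per length. MET and AXL were highest, at 45.8 and 41.9 CPM per kb of exon, and their vehicle libraries overlapped (43.7 to 47.9 for MET, 39.4 to 44.3 for AXL). EPHA2 followed at 25.6, FGFR4 at 17.4, EGFR at 14.4 and FGFR1 at 12.9 CPM per kb. EGFR (13.1 to 15.3 CPM per kb) and FGFR1 (12.7 to 13.3 CPM per kb) also overlapped. ERBB2 was at 6.32, FGFR3 at 2.33 and ERBB3 at 0.754 CPM per kb. FGFR2 stood last at 0.0397 CPM per kb; it had 1 to 15 counts per library over the whole study, so no fold change is given for it. Lengths are the union of exons in GENCODE 29 and take no account of which transcripts A549 makes.

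**Figure D1:**
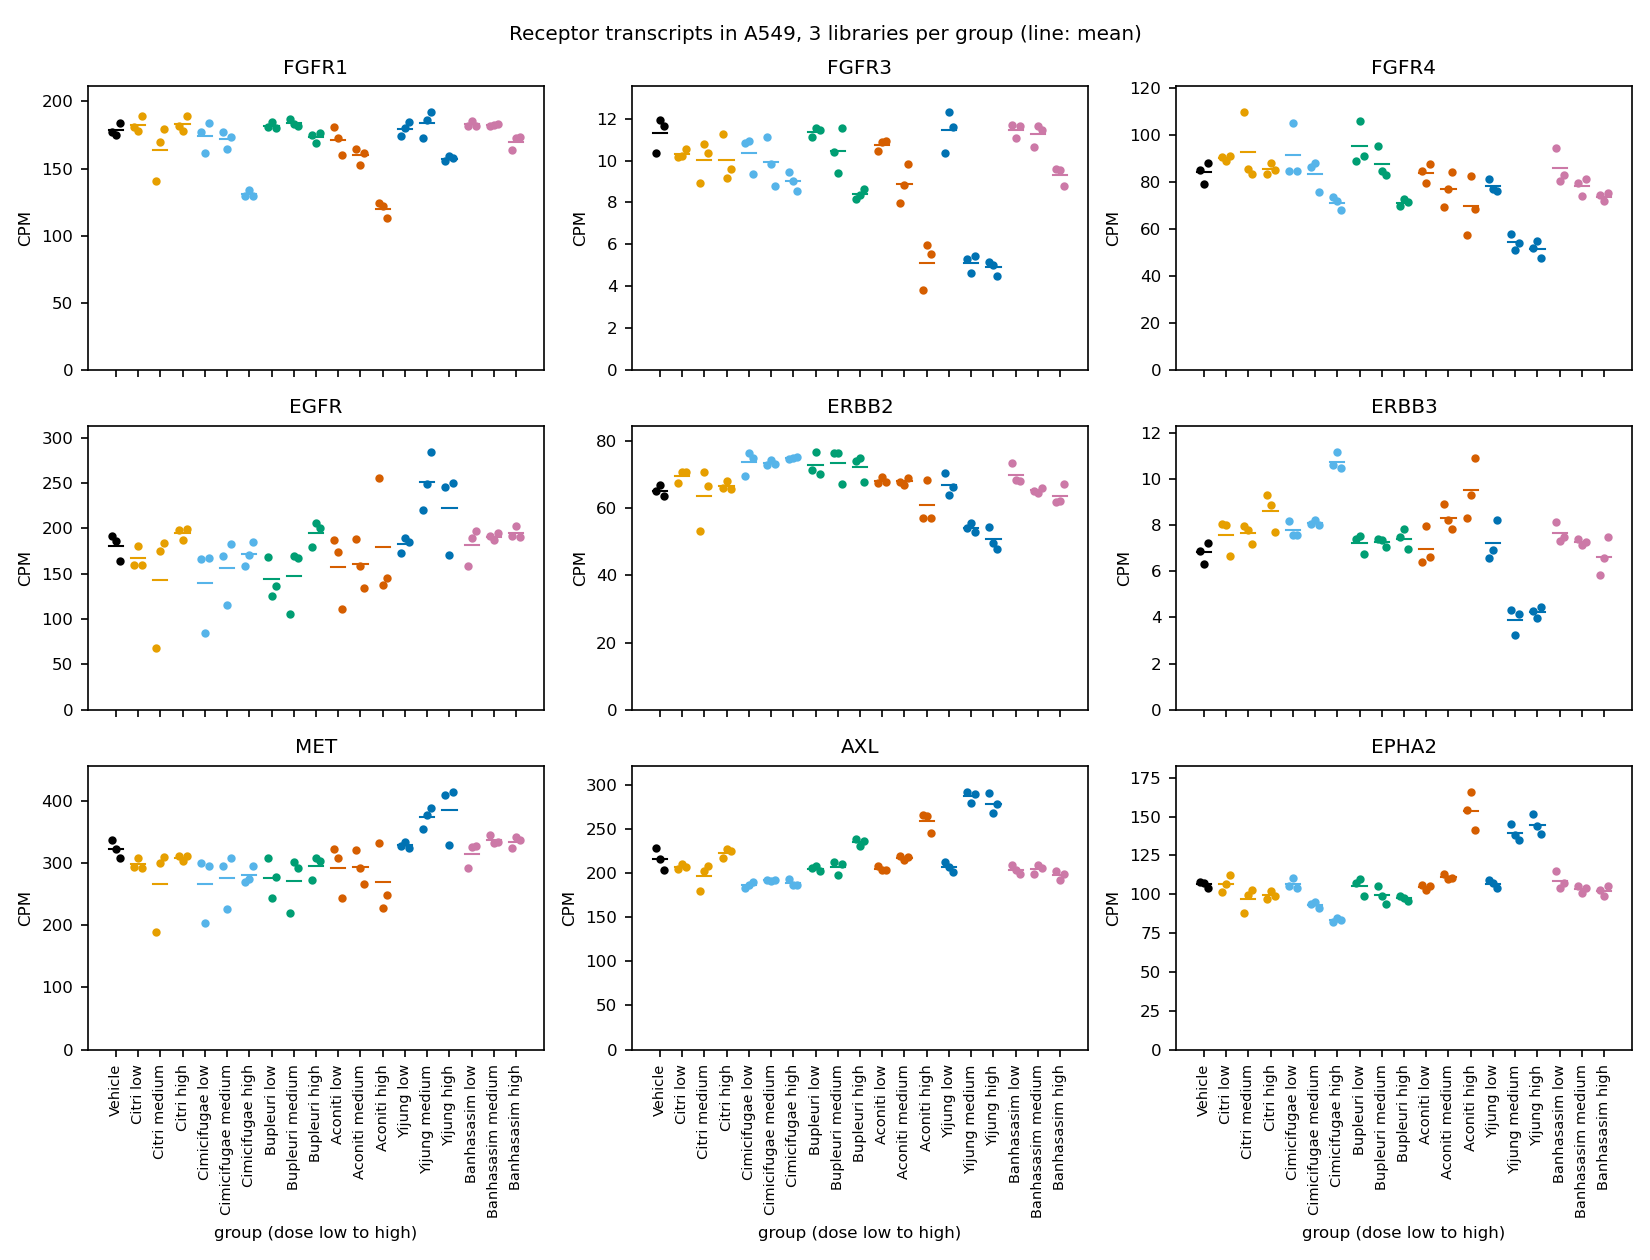
CPM (vertical axes, from 0) of 9 receptors in each library, by group along the horizontal axis, with 3 points per group and a line at their mean. FGFR3 and ERBB3 sit low in Yijung medium and high, and EPHA2 and AXL sit high there and in Aconiti high; EGFR and MET have single low libraries in several groups, such as 68.6 CPM of EGFR in Citri medium.

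The number of receptors past the threshold (adjusted p under 0.05 over all 17268 genes tested, edgeR's quasi-likelihood test) differed by extract and dose. Against vehicle it was 7 of 10 with Yijung high, where 7.09% of all genes passed, and 6 of 10 with Yijung medium, where 7.85% passed. Aconiti high also had 6 of 10, beside 32.7% of all genes. Cimicifugae high had 4 of 10 beside 1.96%, and Bupleuri high had 1 of 10 beside 0.712%. No receptor passed with Aconiti medium (2.29% of genes), Aconiti low (0.0695%), Yijung low (0.0116%), Cimicifugae medium (0.0347%) or Cimicifugae low (0.0116%). None passed with Bupleuri medium (0%) or Bupleuri low (0%), with Citri high (0.0463%), medium (0.0174%) or low (0.00579%), or with Banhasasim high (0.185%), medium (0%) or low (0%). Because these same values chose the receptors, nothing is read from the counts.

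By direction, 5 receptors were lower and 2 higher with Yijung high, beside 3.33% of all genes lower and 3.76% higher. Yijung medium had 4 lower and 2 higher, beside 3.83% and 4.01% of genes. Aconiti high had 3 lower and 3 higher, beside 15.7% and 17%. At Aconiti medium, where no receptor passed, 0.654% of genes were lower and 1.64% higher. The median log2 fold change of the 10 receptors, FGFR2 included, was -0.27 with Yijung high and -0.18 with Aconiti high, against 0.002 and -0.005 over all genes tested.

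Within a set, high against low, 7 receptors passed with Yijung (4.93% of all genes; 5 lower beside 2.29%, 2 higher beside 2.64%) and 6 with Aconiti (22.7%; 3 lower beside 11.3%, 3 higher beside 11.4%). Cimicifugae had 4 (1.34%; 0 with only those 6 libraries fitted), Bupleuri 3 (0.353%; 0 or 1 without any 1 of its 6 libraries), and Citri (0.0232%) and Banhasasim (0.127%) had 0. The Yijung and Aconiti receptors past the threshold were those of their high dose against vehicle. Among these within-set calls, FGFR1 with Yijung and FGFR4 with Aconiti were lost without the low-count filter and with only the 6 libraries compared. FGFR1 was also lost without Yijung low 2, Yijung low 3 or any 1 of the Yijung high libraries (-0.20 to -0.17). FGFR4 was lost without Aconiti high 1, Aconiti high 3, Aconiti low 1 or Aconiti low 3 (-0.26 to -0.14). ERBB3 with Aconiti was lost with only the 6 libraries compared.

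**Figure D2:**
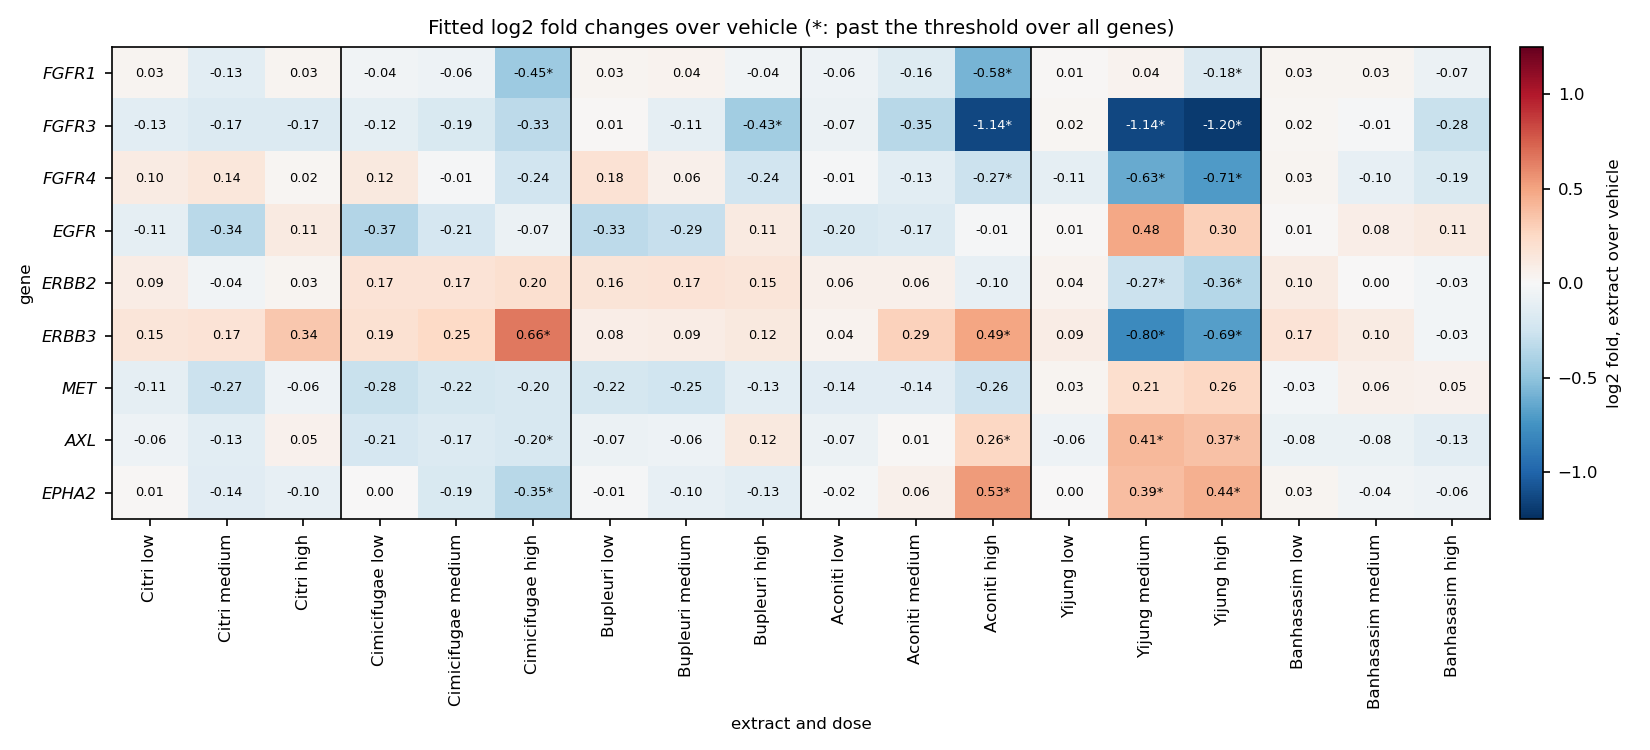
Fitted log2 fold change of each receptor (rows) in each extract and dose (columns, low to high within an extract) over vehicle, from blue (lower) to red (higher); a star marks values past the threshold. The lowest values are FGFR3 in Yijung high (-1.20), Yijung medium (-1.14) and Aconiti high (-1.14), and the highest is ERBB3 in Cimicifugae high (0.66).

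The FGF receptors bind fibroblast growth factors together with heparan sulfate or a klotho co-receptor. FGFR3 (chr4:1793293-1808872, plus strand, GRCh38), known for activating mutations in bladder cancer and skeletal dysplasia, showed the largest log2 differences from vehicle of the 9 receptors other than FGFR2. Its CPM was 5.17, 5.00 and 4.50 in Yijung high and 5.29, 4.65 and 5.44 in Yijung medium, against 10.4, 11.9 and 11.6 in vehicle. Neither Yijung group overlapped vehicle, and the log2 fold changes over vehicle were -1.20 ± 0.11 and -1.14 ± 0.11 (SE, 3 libraries a group, as throughout). Yijung low, at 10.4, 12.3 and 11.6 CPM, overlapped vehicle, and high against low gave -1.22 ± 0.11. In bulk RNA, fewer cells with a transcript and less of it per cell cannot be told apart.
With Aconiti high FGFR3 was at 3.81, 5.99 and 5.56 CPM, again below every vehicle library, with a log2 fold change of -1.14 ± 0.11, in libraries with the mitochondrial shares given above. Along the Aconiti doses it was at 10.5, 10.9 and 10.9 CPM at the low dose and 7.96, 8.83 and 9.84 CPM at the medium dose, whose highest library lay below the lowest low-dose one. Bupleuri high had 8.18, 8.35 and 8.66 CPM, below every vehicle library but by a smaller step of -0.43 ± 0.10 on the log2 scale. That call was lost when any 1 of Vehicle 2, Vehicle 3 or the 3 Bupleuri high libraries was left out (log2 fold change -0.45 to -0.39).

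FGFR4 (chr5:177086886-177098144, plus strand), the receptor that with the co-receptor KLB answers FGF19 in liver, was also lower with Yijung medium and high. It had 51.7, 54.9 and 47.5 CPM in Yijung high and 58.0, 50.9 and 54.0 CPM in Yijung medium, against 85.0, 79.2 and 88.2 CPM in vehicle, with no overlap. The log2 fold changes were -0.71 ± 0.10 and -0.63 ± 0.10, and -0.60 ± 0.10 for high against low. In Aconiti high its libraries spread over 57.5, 82.6 and 68.6 CPM and overlapped vehicle. The log2 fold change there was -0.27 ± 0.10, and it was -0.15 without Aconiti high 1, no longer past the threshold; leaving out Vehicle 1 (-0.27), Vehicle 3 (-0.24) or Aconiti high 3 (-0.24) also ended the call. Against their low doses FGFR4 was lower in Bupleuri high (69.6, 72.5 and 71.4 CPM against 88.7, 106 and 91.2 CPM) and in Cimicifugae high (73.7, 71.7 and 68.2 CPM against 84.5, 105 and 84.8 CPM). Both low-dose groups hold a library above 105 CPM with a low length balance. Without it, Bupleuri low 2 or Cimicifugae low 2, the log2 differences of -0.42 ± 0.10 and -0.36 ± 0.10 became -0.34 and -0.24 and no longer passed; leaving out any 1 of the high-dose libraries, or Bupleuri low 3, ended the same calls. With length balance in the fit both differences still passed, at -0.38 ± 0.05 and -0.27 ± 0.05.

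FGFR1 (chr8:38400215-38468834, minus strand), often amplified in squamous lung cancer, was lowest in Aconiti high and Cimicifugae high. Its CPM was 124, 122 and 113 in Aconiti high and 129.5, 134 and 129.6 in Cimicifugae high, against 177, 175 and 184 in vehicle. Every library of both groups lay below the vehicle range, with log2 fold changes of -0.58 ± 0.06 and -0.45 ± 0.06. Along the Aconiti doses the values were 181, 173 and 160.4 CPM at the low dose and 165, 153 and 162 CPM at the medium dose. Yijung high, at 156, 159 and 158 CPM, was lower than vehicle by a small step of -0.18 ± 0.06, a call that was lost on leaving out any 1 of the 6 libraries compared (-0.20 to -0.16). Yijung medium, at 173, 186 and 192 CPM, overlapped vehicle, whereas FGFR3 and FGFR4 lay below it at both of these Yijung doses.
FGFR2 (chr10:121478334-121598458, minus strand) was between 0.0393 and 0.515 CPM in every library and is described no further.

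The ERBB family holds EGFR, which binds EGF, TGFA, AREG, EREG and BTC; ERBB2, which has no known ligand of its own and serves as a partner; and ERBB3, a neuregulin receptor with a weak kinase. ERBB3 (chr12:56076799-56103505, plus strand) had the widest range of group means among the receptors other than FGFR2, 2.76-fold between Cimicifugae high and Yijung medium. It was at 4.27, 3.97 and 4.45 CPM in Yijung high and 4.31, 3.24 and 4.14 CPM in Yijung medium, against 6.90, 6.32 and 7.24 CPM in vehicle, without overlap. The fitted values were -0.69 ± 0.11 and -0.80 ± 0.11, and -0.78 ± 0.11 within the set.
In the opposite direction, ERBB3 was at 10.6, 11.2 and 10.5 CPM in Cimicifugae high and 8.31, 9.28 and 10.9 CPM in Aconiti high, all above vehicle. Those log2 fold changes were 0.66 ± 0.10 and 0.49 ± 0.10. Citri high, at 9.30, 8.85 and 7.68 CPM, also lay above every vehicle library, with 0.34 ± 0.10, short of the threshold. Yijung and Aconiti, both with lower FGFR3 at the high dose, thus had ERBB3 on opposite sides of vehicle.

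ERBB2 (chr17:39687914-39730426, plus strand) was lower with Yijung by a smaller step. Its libraries were at 54.4, 49.8 and 47.9 CPM in Yijung high and 54.2, 55.7 and 52.8 CPM in Yijung medium, against 65.1, 67.0 and 63.6 CPM in vehicle. None overlapped vehicle, and the log2 fold changes were -0.36 ± 0.07 and -0.27 ± 0.07, with -0.40 ± 0.07 for high against low. Cimicifugae high, at 74.7, 75.1 and 75.3 CPM, lay above every vehicle library with 0.20 ± 0.07 and did not pass.

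EGFR (chr7:55019021-55211628, plus strand) had the widest spread of libraries of any receptor but FGFR2, 4.15-fold between its highest and its lowest. It was at 246, 170.3 and 250.2 CPM in Yijung high and 220.3, 249 and 285 CPM in Yijung medium, against 192, 186 and 164 CPM in vehicle. Yijung medium did not overlap vehicle and Yijung high did, through its second library, and the log2 fold changes of 0.30 ± 0.24 and 0.48 ± 0.24 were short of the threshold. Aconiti high was split, at 256, 137 and 145 CPM. These values went with length balance. The 8 libraries of lowest balance had 68.6 to 170.3 CPM of EGFR, median 114, and the other 49 had 126 to 285 CPM, median 185.
MET (chr7:116672390-116798386, plus strand), the receptor for hepatocyte growth factor, went with balance in the same way, with 189 to 329 CPM, median 227, in those 8 libraries and 244 to 415 CPM, median 308, in the other 49. In Yijung high MET was at 409.6, 329 and 415 CPM and in Yijung medium at 354, 377 and 389 CPM, against 337, 322 and 308 CPM in vehicle. Yijung medium lay above the vehicle range, Yijung high reached into it with its second library, and 0.26 ± 0.14 and 0.21 ± 0.14 did not pass. The medians of AXL were 208 CPM in both sets of libraries, and those of EPHA2 were 108 CPM in the 8 and 104 CPM in the 49. EGFR, MET, FGFR1 and ERBB2, with more than 6 kb of exon and a mean over 10 CPM, are among the genes that define balance. AXL and EPHA2, which are shorter, are not. The median of ERBB2 was 68.1 CPM in the 8 and 67.9 CPM in the 49, and that of FGFR1 was 160 CPM and 178 CPM.

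With balance as a covariate in the fit, the EGFR and MET errors shrank and their Yijung values passed. EGFR was then at 0.53 ± 0.07 in Yijung high and 0.59 ± 0.07 in Yijung medium over vehicle, and MET at 0.38 ± 0.05 and 0.28 ± 0.05. EGFR also passed in Aconiti high, at 0.35 ± 0.07 where the fit without balance gave -0.01 ± 0.24, and in Bupleuri high at 0.32 ± 0.07. MET in Aconiti high was at -0.05 ± 0.05. FGFR4 in Aconiti high was then at -0.41 ± 0.06, against -0.27 ± 0.10 without balance, and FGFR1 there at -0.52 ± 0.04, against -0.58 ± 0.06. Cimicifugae high gained FGFR3 (-0.33 ± 0.10), FGFR4 (-0.27 ± 0.05) and ERBB2 (0.20 ± 0.06), and Bupleuri high gained FGFR4 (-0.31 ± 0.05) and AXL (0.13 ± 0.04). Aconiti medium gained FGFR3 (-0.36 ± 0.10) and FGFR4 (-0.24 ± 0.06), and Cimicifugae low gained AXL (-0.19 ± 0.04). The number of receptors past the threshold then became 9 with Yijung high, 8 with Yijung medium, 7 each with Aconiti high and Cimicifugae high, 4 with Bupleuri high, 2 with Aconiti medium and 1 with Cimicifugae low. Calls over all 17268 genes rose as well. They went from 1225 to 2778 with Yijung high, from 1355 to 3322 with Yijung medium and from 5652 to 6768 with Aconiti high. Cimicifugae high went from 339 to 1405, Bupleuri high from 123 to 668, Aconiti medium from 396 to 1061 and Cimicifugae low from 2 to 11. The FGFR3, ERBB3, AXL and EPHA2 fold changes past the threshold against vehicle moved by no more than 0.02. Whether balance reflects RNA quality was not tested.

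**Figure D3:**
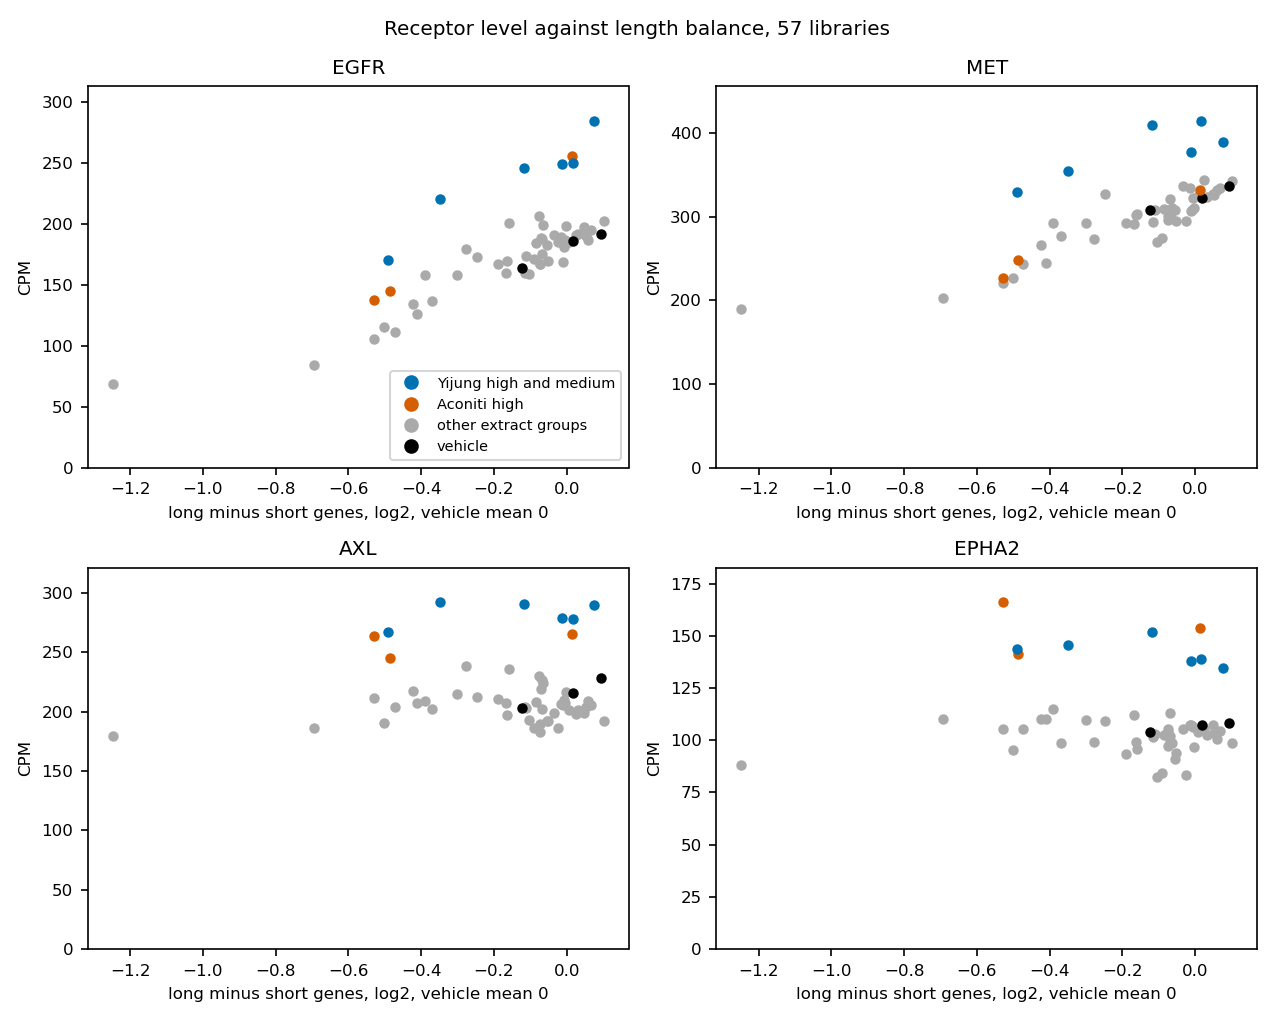
CPM of EGFR, MET, AXL and EPHA2 (vertical axes, from 0) against length balance (horizontal axis, log2, vehicle mean at 0) in 57 libraries, coloured by group. EGFR and MET are low in the libraries at the left, the lowest of all being Citri medium 1 with 68.6 CPM of EGFR and 189 CPM of MET; most AXL and EPHA2 values at the left lie among those of the other libraries.

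AXL (chr19:41219203-41261766, plus strand), the GAS6 receptor known in epithelial-to-mesenchymal transition and in resistance to EGFR inhibitors, was high with Yijung and Aconiti. It had 290.4, 268 and 278 CPM in Yijung high, 292, 279 and 289.8 CPM in Yijung medium and 266, 264 and 245 CPM in Aconiti high, against 228, 216 and 203 CPM in vehicle. All 9 libraries were above the vehicle range, with log2 fold changes of 0.37 ± 0.05, 0.41 ± 0.05 and 0.26 ± 0.05. Within a set, high against low gave 0.43 ± 0.05 for Yijung and 0.33 ± 0.05 for Aconiti. AXL in Cimicifugae high was lower, at 193, 186 and 186 CPM with -0.20 ± 0.05; that call was lost without Vehicle 1 (-0.15), Vehicle 2 (-0.19), Cimicifugae high 2 (-0.19) or Cimicifugae high 3 (-0.19). The low dose of the same extract was at 183, 186 and 189.5 CPM, overlapping the high dose. Bupleuri high, at 238, 230.1 and 236 CPM, was above Bupleuri low, at 206, 208 and 202 CPM, by 0.20 ± 0.05, a call lost on leaving out any 1 of the 6 libraries (0.18 to 0.21).

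EPHA2 (chr1:16124337-16156087, minus strand), which binds ephrin-A ligands on neighbouring cells, was higher in the same 3 groups as AXL. Its CPM was 152, 144 and 139 in Yijung high, 146, 138 and 135 in Yijung medium and 154, 166 and 141 in Aconiti high, against 108, 107 and 104 in vehicle. The lowest of these 9 libraries was above the highest vehicle library, with 0.44 ± 0.05, 0.39 ± 0.05 and 0.53 ± 0.05 on the log2 scale. At Yijung low, with 109, 107 and 104 CPM, and Aconiti low, with 106, 103 and 106 CPM, the values were close to those of vehicle. In Cimicifugae high EPHA2 was lower, at 82.2, 84.4 and 83.2 CPM with -0.35 ± 0.05, and -0.36 ± 0.05 against the low dose.

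Over the 19 group means of log2 CPM, FGFR3 and AXL had a Pearson r of -0.86, FGFR3 and FGFR4 0.86, and EGFR and MET 0.88. These are descriptions over groups that share a scaling and, for EGFR and MET, the low-balance libraries. Among 13650 protein-coding genes compared the same way, the gene most like FGFR3 was FGB, fibrinogen beta chain, at r = 0.974, followed by MYORG at 0.963 and ARRB1 at 0.958. The nearest were ZCCHC4 for EPHA2 (0.978), MARCH4 for AXL (0.954), TP53I11 for ERBB2 (0.969), COLCA2 for ERBB3 (0.935), SLC7A7 for FGFR4 (0.947) and HSPA2 for FGFR1 (0.936). EGFR was nearest to NEDD4 (0.957) and MET to SLC4A7 (0.983), while FGFR2, with few counts, reached 0.78 with DOK3.

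Bojungikgi, with 1 library a dose, was kept outside the model and was not tested. At its high dose FGFR1, FGFR2, ERBB2, MET and AXL lay inside the vehicle range and the other 5 receptors outside it, with differences of log2(CPM + 1) between -0.20 (FGFR3, 9.69 CPM) and 0.19 (EGFR, 205 CPM) from vehicle. FGFR4 was at 78.2, 78.5 and 78.5 CPM at the low, medium and high doses, just below the vehicle range of 79.2 to 88.2 CPM.

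The genes around the receptors were taken from 6 lists, which were also chosen with earlier results of these data known. Their counts and adjusted p-values are therefore descriptions and not independent evidence. Among the ligands, 22 of 32 were tested, and with Aconiti high 7 were higher and 3 lower, with a median log2 fold change of 0.13 against -0.005 over all genes. That is 45.5% of the ligands tested, beside 32.7% of all genes (17% higher, 15.7% lower), in the libraries with the high mitochondrial share, whose part in the result was not tested. The EGFR ligands led. Epiregulin (EREG) was at 377, 290.4 and 317 CPM in Aconiti high, against 160.1, 164 and 157 CPM in vehicle. Its libraries did not overlap, and EREG rose by 1.03 ± 0.09 (edgeR adjusted p = 1.74e-12). Amphiregulin (AREG) had 87.4, 97.0 and 105 CPM in Aconiti high and 48.1, 49.9 and 47.9 CPM in vehicle, a rise of 0.99 ± 0.12 (edgeR adjusted p = 5.68e-09). AREG was also at 85.0 CPM in Citri medium 1, the library of lowest length balance, against 47.9 and 51.2 CPM in the other Citri medium libraries. The Aconiti high call of AREG still passed with balance in the fit. TGFA rose by 0.93 ± 0.14 (edgeR adjusted p = 7.28e-07) and betacellulin (BTC) by 1.32 ± 0.16 (edgeR adjusted p = 1.8e-08). TGFA averaged 10.4 CPM in Aconiti high and 5.43 CPM in vehicle, and BTC 4.44 CPM in Aconiti high and 1.76 CPM in vehicle. EGFR itself, as given above, passed in Aconiti high with balance in the fit and not without it.
With Yijung high 4 ligands were higher and 1 lower, with a median of 0.07 against 0.002, which is 22.7% of those tested beside 7.09% of all genes (3.76% higher, 3.33% lower). EREG was at 245, 229.8 and 281 CPM in Yijung high, 0.65 ± 0.09 above vehicle (edgeR adjusted p = 8.38e-07), and AREG at 66.4, 81.0 and 70.9 CPM, 0.58 ± 0.12 above it (edgeR adjusted p = 0.000532). TGFA rose by 0.50 ± 0.14 (edgeR adjusted p = 0.0184), and missed the threshold without Vehicle 1 (adjusted p = 0.0951), Vehicle 3 (0.0666), Yijung high 1 (0.119) or Yijung high 3 (0.0543), with only those 6 libraries fitted (0.0847) and without the low-count filter (0.0505). EFNA1, an ephrin-A ligand of EPHA2, fell by 0.48 on the log2 scale (edgeR adjusted p = 0.00636), with 8.59 ± 0.17 CPM in Yijung high and 11.9 ± 0.37 CPM in vehicle (SD, n = 3 each). Yijung medium had 3 ligands higher, 1 without Vehicle 2, and 2 lower (median 0.00), beside 4.01% and 3.83% of all genes. EREG was among the higher (0.71 ± 0.09, edgeR adjusted p = 1.28e-07), and AREG too (0.38 ± 0.12, edgeR adjusted p = 0.0309, and 0.0662 to 0.154 without any 1 of the vehicle libraries, Yijung medium 1 or Yijung medium 2). With Cimicifugae high the 1 ligand past the threshold was the neuregulin NRG1, lower by 0.33 ± 0.09 (edgeR adjusted p = 0.0356, over it without any 1 of the 6 libraries, 0.0608 to 0.161), where 1.96% of all genes passed.

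Transcripts that the ERK cascade is known to raise were the list with the largest share of genes called in Aconiti high and in Yijung high. With Aconiti high 12 of 17 were higher and 1 lower (median 0.63, against -0.005 over all genes), and with Yijung high 11 were higher and 0 lower (median 0.41, against 0.002). Over all genes 17% were higher with Aconiti high and 3.76% with Yijung high. Yijung medium had 10 higher and 0 lower (median 0.40), beside 4.01% of all genes higher. Aconiti medium had 6 higher and 0 lower (median 0.20, against 0.01), beside 1.64% of all genes higher, and the mitochondrial share was raised in its libraries as well as in those of Aconiti high; its part in these counts was not tested. Of those 6, ETV5 passed in every alternative run; between 1 and 5 passed when 1 library was left out, the 1 without Vehicle 2 or Aconiti medium 3, and 2 passed without the low-count filter. IER3, ETV4 and FOSL1 each lost the call without Aconiti medium 2, Aconiti medium 3 or Vehicle 2. FOSL1, an AP-1 subunit, was at 63.7, 65.5 and 66.6 CPM in Aconiti high and 69.5, 76.8 and 63.7 CPM in Yijung high, against 28.97, 26.7 and 29.7 CPM in vehicle. It rose by 1.20 ± 0.08 with Aconiti high and 1.3 ± 0.08 with Yijung high (edgeR adjusted p = 5.59e-17 and 2.32e-17). DUSP6, an ERK phosphatase, rose by 0.83 ± 0.09 and 0.93 ± 0.09 in the same comparisons (edgeR adjusted p = 7.13e-10 and 1.17e-10). The immediate early factor EGR1 was at 6.43, 7.80 and 9.53 CPM in Yijung medium and 5.04, 5.28 and 5.00 CPM in Yijung high, against 1.45, 1.74 and 1.47 CPM in vehicle. The medium-dose libraries all lay above the high-dose ones, a difference that was not tested. Its log2 fold changes were 2.34 ± 0.18 and 1.71 ± 0.18 (edgeR adjusted p = 1.93e-13 and 2.1e-09). Against their low doses Aconiti high had 12 higher and 0 lower (median 0.50), beside 11.4% of all genes higher, and Yijung high 11 and 0 (median 0.48), beside 2.64%. Cimicifugae high had 0 higher and 2 lower (median 0.05, against 0.005), beside 1.96% of all genes in either direction, DUSP5 (-0.35 ± 0.07, edgeR adjusted p = 0.00395) and CCND1, cyclin D1 (-0.34 ± 0.09, edgeR adjusted p = 0.0426, and 0.0735 to 0.204 without any 1 of the 6 libraries).

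**Figure D4:**
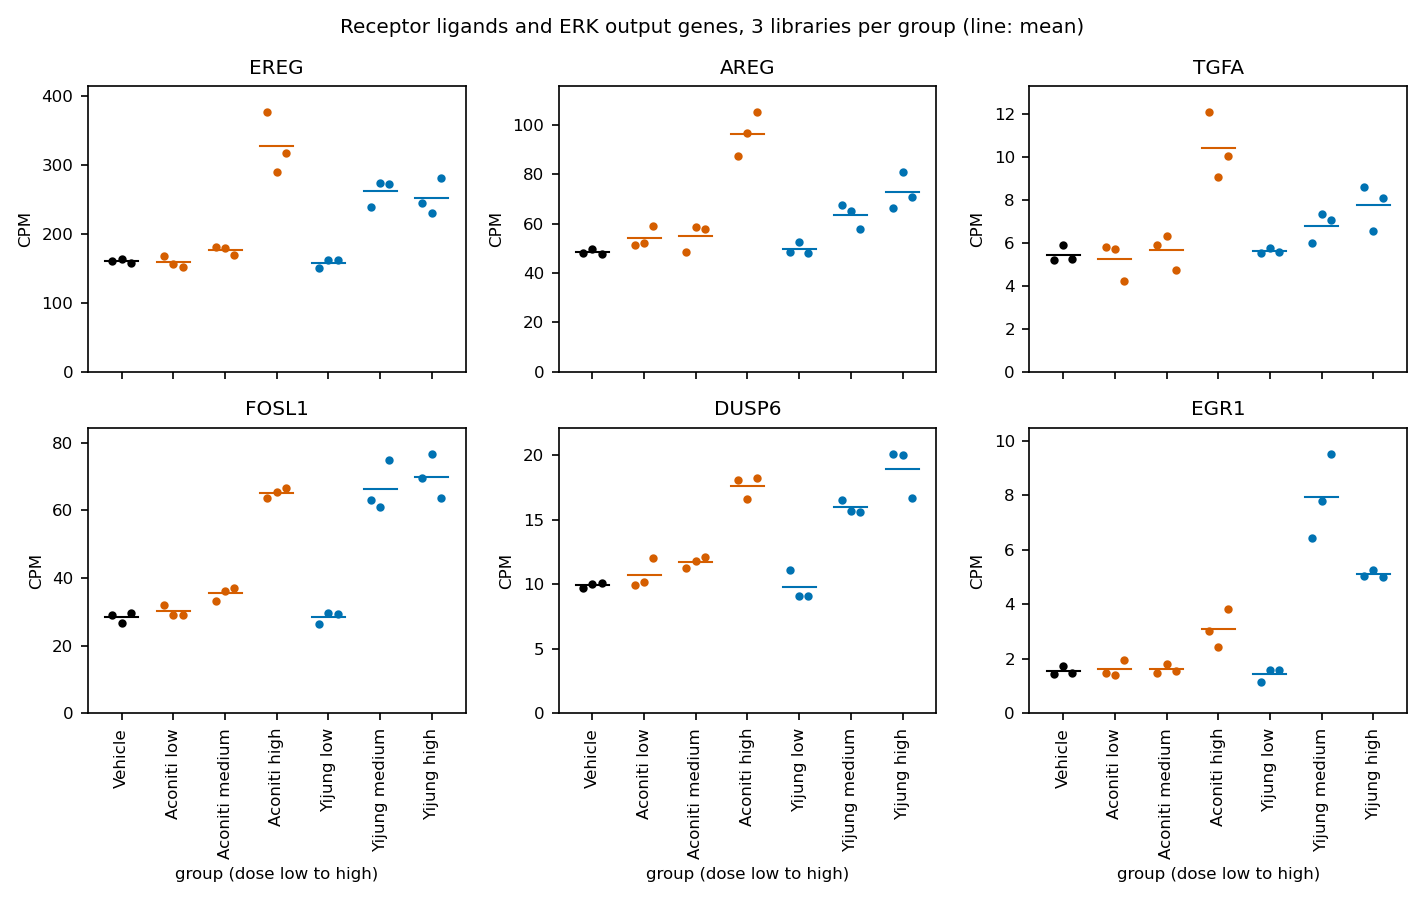
CPM (vertical axes, from 0) of 3 EGFR ligands and 3 ERK output genes in vehicle and along the low, medium and high doses of Aconiti and Yijung, with 3 points per group and a line at their mean. For all 6 genes every library of Aconiti high and Yijung high lies above the highest vehicle library.

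Of 24 negative regulators of receptor signalling 23 were tested, and with Aconiti high 6 were higher and 6 lower (median -0.12), which is 52.2% beside 32.7% of all genes; 2 were lower without Aconiti high 2. With Yijung high 3 were higher and 1 lower (median 0.02), and with Yijung medium 5 and 1 (median 0.08), which is 17.4% beside 7.09% of all genes and 26.1% beside 7.85%. SOCS3, a feedback inhibitor of cytokine signalling, rose by 0.81 ± 0.07 with Aconiti high and 0.52 ± 0.07 with Yijung high (edgeR adjusted p = 4.1e-12 and 1.35e-06). SH3KBP1, an adaptor in receptor endocytosis, was at 135, 133 and 124 CPM in Yijung high and 129, 118 and 126 CPM in Aconiti high, against 86.4, 84.0 and 88.1 CPM in vehicle. It rose by 0.60 ± 0.05 and 0.53 ± 0.05 (edgeR adjusted p = 2.15e-12 and 1.67e-11). ERRFI1, an inhibitor that binds EGFR, rose by 0.38 ± 0.08 with Yijung medium (edgeR adjusted p = 0.000459).

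Among adaptors and docking proteins 4 were higher and 11 lower with Aconiti high, of 26 tested (median -0.18), which is 57.7% beside 32.7% of all genes. The lower ones numbered 6 without Aconiti high 2 and 7 without Vehicle 2. Yijung high had 3 and 3 (median 0.00), 23.1% beside 7.09%, and 1 higher without Vehicle 3 or Yijung high 2. KLB, the co-receptor of FGFR4 for FGF19, was at 1.08, 1.20 and 1.43 CPM in Yijung high and 2.00, 0.911 and 1.38 CPM in Aconiti high, against 3.20, 2.59 and 2.52 CPM in vehicle. It fell by 1.18 and 0.96 on the log2 scale (edgeR adjusted p = 9.88e-06 and 4.45e-05). GRB7, an adaptor of ERBB2 encoded near it on chromosome 17, was 0.48 lower with Yijung high (edgeR adjusted p = 0.000766, and 0.0557 with only those 6 libraries fitted), with 5.96 ± 0.49 CPM there and 8.30 ± 0.84 CPM in vehicle (SD, n = 3 each). It was 0.45 ± 0.09 higher with Cimicifugae high (edgeR adjusted p = 0.00323, and 0.0736 without Vehicle 1), the same directions as the ERBB2 values above. PIK3R3, a regulatory subunit of PI3K, was 0.98 lower with Aconiti high (edgeR adjusted p = 7.79e-08).

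Of 48 other receptor tyrosine kinases 28 were tested, and with Aconiti high 4 were higher and 5 lower (median -0.16), with Yijung high 1 and 2 (median -0.11) and with Yijung medium 0 and 3 (median -0.12). The 32.1% called with Aconiti high is close to the 32.7% of all genes (3 lower without Aconiti high 3), and the 10.7% called with each Yijung dose stands beside 7.09% and 7.85%. NTRK3, a neurotrophin receptor, was at 57.9, 62.9 and 67.1 CPM in Yijung medium and 79.3, 69.4 and 82.7 CPM in Yijung high, against 105, 101 and 109 CPM in vehicle. It fell by 0.75 and 0.45 on the log2 scale (edgeR adjusted p = 8.15e-09 and 0.000203), and by 0.56 with Cimicifugae high (edgeR adjusted p = 1.88e-05). NTRK3 in Aconiti high, at 66.2, 65.8 and 63.2 CPM, also lay below every vehicle library. It was 0.51 lower there than in Aconiti low (edgeR adjusted p = 9.15e-06). With Bupleuri high it fell by 0.35 (edgeR adjusted p = 0.0267), a call lost without any 1 of the 6 libraries. ROR1, a receptor for WNT5A, rose by 0.44 ± 0.07 with Yijung high and 0.41 ± 0.07 with Bupleuri high (edgeR adjusted p = 2.87e-05 and 0.00084). EPHA7 fell by 1.3 on the log2 scale with Aconiti high (edgeR adjusted p = 9.07e-06), with 0.854 ± 0.22 CPM there and 2.09 ± 0.34 CPM in vehicle (SD, n = 3 each). It also fell by 1.03 with Yijung medium (edgeR adjusted p = 0.000653). Among the shedding enzymes and their controls ADAM10, a protease that releases ligands and receptor ectodomains, fell by 0.49 with Aconiti high (edgeR adjusted p = 0.000598), and 3 of the 10 were higher and 1 lower there (median 0.04; 40% beside 32.7% of all genes, and 1 higher without Aconiti high 2). Against Aconiti low ADAM10 fell by 0.36 ± 0.11 (edgeR adjusted p = 0.0139), with overlapping libraries. That call was lost without Aconiti low 1, Aconiti low 2, Aconiti high 2 or Aconiti high 3 (adjusted p 0.0504 to 0.205). It was also lost with only those 6 libraries fitted (0.141). TIMP3, an inhibitor of such proteases, fell by 0.57 with Yijung high (edgeR adjusted p = 0.000772), where 1 was higher and 1 lower (median 0.04; 20% beside 7.09% of all genes). With Citri high and Banhasasim high 0 genes of the 6 lists passed. All comparisons against vehicle share the same 3 vehicle libraries.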

How the data were processed

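Per the labels' protocols, messenger RNA of A549 cells (RNA integrity number over 7) was sequenced from strand-marking libraries with 100 bp paired reads. FastQC 0.11.9, Trim Galore 0.6.5, STAR 2.7.3a, RSEM 1.3.3 and the build GRCh38 (hg38) were used, per the submitters' processing notes; which annotation the counting used, and with what strand option, is not given in the sources used here, so reads of overlapping and antisense genes could be shared. The deposited table holds the authors' expected counts per gene, not normalized, of which 9.37% were not whole. Of its 269 sample columns 60 matched a sample by name and 209 were not used. Symbols, lengths and gene coordinates came from GENCODE 29, which held 57055 of the 60675 identifiers.

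Expected counts were rounded. One edgeR 4.0.16 quasi-likelihood model (R 4.3.3) held the 57 libraries of 19 groups, with TMM scaling and a low-count filter that left 17268 genes; Benjamini-Hochberg adjustment ran over all of them within each of 24 comparisons, 18 against vehicle and 6 of high against low dose. The common dispersion was 0.01026. Bojungikgi, with 1 library a dose, was kept outside the model and not tested. Total counts of 17793655 to 30188211 per library set the counting precision. The closest replicate pair differed by a chi-square of 2.03 per degree of freedom, above sampling noise, so no library was taken as a copy of another. The fitting code was tested on simulated counts.

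The receptors and the gene lists were chosen with earlier results of these data known. Every receptor is reported, and of each list up to 4 genes past the threshold with the largest absolute change and at least 1 CPM, plus the genes most like each receptor over group means, were open to naming; not all of them are named. Alternatives were another scaling (RLE), DESeq2 1.42.0, no low-count filter, only the 6 libraries compared, replicate number as a block, length balance as a covariate, a shared fit without Citri medium 1, and leaving out each library.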

Additional observations from a re-analysis of the deposited data

Results flagged for a closer look

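At the high dose 4 receptors had all 3 libraries of at least 1 extract above every vehicle library and all 3 of another below, and the difference between the extracts was not tested in any of these cases. How many of all genes tested do the same was not counted, so nothing is read from the number of receptors. ERBB3 differed most, by 1.35 on the log2 scale between Cimicifugae high, above vehicle, and Yijung high, below it; Citri high and Aconiti high were also above. EPHA2 differed by 0.88 between Aconiti high, above vehicle, and Cimicifugae high, below it; Yijung high was also above, and Citri high and Bupleuri high also below. AXL differed by 0.56 between Yijung high, above, and Cimicifugae high, below, with Aconiti high and Bupleuri high also above and Banhasasim high also below. ERBB2 differed by 0.56 between Cimicifugae high, above, and Yijung high, below, with Bupleuri high also above. Some of these differences from vehicle were small and short of the threshold. They were ERBB3 in Citri high (0.34), EPHA2 in Citri high (-0.10) and Bupleuri high (-0.13), and AXL in Bupleuri high (0.12) and Banhasasim high (-0.13). ERBB2 in Cimicifugae high (0.20) and Bupleuri high (0.15) was short of it too. The extracts share the 3 vehicle libraries, and Cimicifugae, Aconiti and Yijung carry different set labels.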

How the results depend on the processing

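The 44 receptor fold changes past the threshold kept their direction under every alternative run; 30 passed in all of them, and 68 of 572 refitted values missed the threshold. Of 217 fold changes of list genes past the threshold 128 passed in all alternatives that gave a value, and 0 changed direction; of the 120 among them chosen by size (up to 4 for each list and comparison) 83 passed in all. Counts moved as follows, and the cause was not tested. With length balance as a covariate the receptors past the threshold were 7 in Cimicifugae high, 1 in Cimicifugae low, 4 in Bupleuri high and 2 in Aconiti medium over vehicle, and the list genes 1 in Citri high, 21 in Cimicifugae high, 12 in Bupleuri high, 6 in Banhasasim high and 13 in Aconiti medium. Of all 17268 genes that fit called 1405 in Cimicifugae high, 11 in Cimicifugae low, 668 in Bupleuri high and 1061 in Aconiti medium. It called 44 in Citri high and 187 in Banhasasim high. With only the 6 libraries compared, 8 receptors passed in Cimicifugae high, 2 in Bupleuri high, 0 in Cimicifugae high against low and 1 in Bupleuri high against low. The list genes that passed were 25 in Cimicifugae high, 12 in Bupleuri high, 2 in Banhasasim high, 14 in Aconiti medium and 25 in Aconiti high against low. Over all genes those fits called 1932 of 15834 in Cimicifugae high, 1024 of 15755 in Bupleuri high, 144 of 15694 in Banhasasim high and 1130 of 15571 in Aconiti medium. High against low, they called 11 of 15906 with Cimicifugae, 41 of 15742 with Bupleuri and 1501 of 15691 with Aconiti. With DESeq2 there were 2 receptors in Cimicifugae medium, 1 in Cimicifugae low and 2 in Aconiti medium, and with RLE factors 1 in Cimicifugae low and 1 in Aconiti medium. Of all 17268 genes RLE factors gave 3 calls in Cimicifugae low and 411 in Aconiti medium. The DESeq2 calls over all genes are not given here. Without the low-count filter there were 0 receptors in Bupleuri high, 1 in Bupleuri high against low, 3 list genes in Cimicifugae high and 2 in Aconiti medium. Of 36666 genes that run called 60 in Bupleuri high, 33 in Bupleuri high against low, 137 in Cimicifugae high and 188 in Aconiti medium. A shared fit without Citri medium 1 gave 1 receptor in Cimicifugae low, 2 in Aconiti medium and 11 list genes in Cimicifugae high. Of 17524 genes it called 5 in Cimicifugae low, 647 in Aconiti medium and 544 in Cimicifugae high.

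Leaving out 1 library at a time gave 0 to 3 receptors in Citri medium (1 without Citri medium 2, 3 without Citri medium 3), 0 to 1 in Cimicifugae low, Bupleuri high and Aconiti medium and in Bupleuri high against low, and 3 to 4 list genes in Cimicifugae high, 1 in Bupleuri high and 2 to 6 in Aconiti medium. The calls over all genes in these refits are not given here, so nothing is read from the counts. Replicate numbers were not treated as pairs in the main fit. In no comparison did all 3 same-numbered correlations exceed 0.1, a limit that cannot exclude pairing. In Aconiti high against low they were 0.3, -0.14 and 0.29. With the replicate block the receptor counts stayed the same in 24 of 24 comparisons, 7 in Yijung high and 6 in Aconiti high among them, and over all genes Yijung high had 1242 calls with the block.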
